A study of Mus musculus with 12 samples.

Results

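Described here are 9 genes that encode structural proteins of the basement membrane, measured in mouse mammary tumour organoids in which the claudin gene Cldn7 was knocked down. They were chosen by gene symbol from a table of 25861 genes: the collagen IV chains Col4a1 and Col4a2, the laminin chains Lama3, Lama5, Lamb3 and Lamc1, the nidogens Nid1 and Nid2, and the perlecan gene Hspg2. All 9 were present, and all 9 were among the 17025 genes with enough reads to be tested. The organoids came from primary MMTV-Neu tumours, which arise because a promoter active in mammary epithelium drives the Neu oncogene, and the labels call the material primary epithelial cells of the mammary gland. They were infected with lentivirus at a multiplicity of infection of 20, treated for 3 days with 3 µg/ml puromycin to select infected cells, and kept in collagen I gels with 2.5 nM FGF2 for 5 days. In the sh1Cldn7 and sh2Cldn7 groups the virus carried 1 of 2 short hairpin RNAs against Cldn7, and in the shControl group, labelled WT, a non-targeting hairpin; virus, puromycin, FGF2 and collagen I were common to all 3 groups. Each group had 4 libraries, numbered 1 to 4, and no age, animal or strain beyond MMTV-Neu is given. The stated purpose of the study was to learn what Cldn7 does in invasion and metastasis.

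The basement membrane is the thin sheet of matrix on which epithelium rests. Laminin trimers of an alpha, a beta and a gamma chain polymerise at the cell surface, and collagen IV trimers of alpha1 and alpha2 chains, the products of Col4a1 and Col4a2, form another, covalently crosslinked network. Nidogens bind laminin and collagen IV, and perlecan is a large heparan sulfate proteoglycan that binds both networks and growth factors. In the mammary gland this sheet surrounds the ducts, and invading tumour cells have to cross it.

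Col4a1 and Col4a2 lie head to head on chromosome 8 (GRCm38), a layout known for transcription of the pair from 1 shared promoter. Col4a1 (NCBI Gene 12826) spans 11198423 to 11312826 on the minus strand, and Col4a2 (NCBI Gene 12827) spans 11312805 to 11449287 on the plus strand. Their first exons share 22 bases in GENCODE M21. The stretch around the starts, chr8:11312801-11312830 on the plus strand of GRCm38.p6, is shown because the results below turn on the difference between these neighbours. Its sequence comes from RefSeq, and the capitals mark the 22 bases between the start of Col4a2 and that of Col4a1.
Col4a2-Col4a1 starts: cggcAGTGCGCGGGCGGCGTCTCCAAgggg
The capitals hold 1 match to the GC box letters GGGCGG. In the RefSeq windows of 300 bases around gene starts, searched on both strands, GGGCGG stood in 35.7%, CCAAT in 37.4% and TATAAA in 13.6% of 32851 windows. The window of Col4a1 held 1 GGGCGG and 1 CCAAT, that of Col4a2 held 3 and 1, and neither held TATAAA. Those windows overlap, so that they share some of these matches. A match is a description of the letters and not of a bound site.

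The depth of the libraries and their cell type markers are given first, as background to the values below. Total counts ranged from 34988358 to 76329473 per library and were higher in replicates 3 and 4 than in replicates 1 and 2 of every group. Cldn7, which checks the labels, stood at 33.6 ± 7.15, 28.4 ± 4.29 and 142 ± 34.6 CPM (read counts divided by library size, after TMM scaling of the libraries; SD, n = 4 each) in the sh1Cldn7, sh2Cldn7 and shControl groups. Epcam, a marker of the labelled epithelium, ranged from 802 to 1857 CPM. Libraries of replicate 4 stood apart in all 3 groups. Their summed level of 11 fibroblast markers was 5470, 9398 and 4329 CPM in the sh1Cldn7, sh2Cldn7 and shControl libraries, against 269 to 2304 CPM in the other 9 libraries. Their summed level of 8 pericyte markers was 438, 517 and 424 CPM, against 206 to 300.2 CPM in the others, mostly through Pdgfrb, which had 123 to 218 CPM in replicate 4, against 7.25 to 24.9 CPM. Without Pdgfrb the pericyte sum was 269 to 300.5 CPM in replicate 4, against 187 to 280.4 CPM. The 11 endothelial markers summed to 9.57 to 33.8 CPM over all libraries, and without Flt1 to 4.99 to 6.39 CPM in replicate 4, against 3.40 to 11.98 CPM in the others. Cldn5 and Emcn of that list were at 0 in 4 and 2 libraries, and the leukocyte gene Ptprc was at 0 in 1. Leukocyte genes were higher in replicates 1 and 2 than in 3 and 4. Means in replicates 1 to 4 were 5.35, 4.48, 0.03 and 0.11 CPM for Ptprc. For Lyz2 they were 52.7, 37.9, 0.02 and 5.89 CPM, and for Csf1r 3.89, 2.96, 0.22 and 0.55 CPM. The macrophage marker sum shows this less, since it includes Cd14 at 126 to 292 CPM. In libraries of bulk RNA, more cells of a type and more RNA per cell cannot be told apart.

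The members differed in how far they followed replicate 4. The mean of its 3 libraries was 16.6 times the mean of the other numbers for Nid2, 7.10 times for Nid1, 3.19 times for Hspg2, 3.04 times for Col4a2, 2.55 times for Col4a1 and 1.68 times for Lamc1. The epithelial laminin chains showed no such excess, with 0.98 times for Lamb3, 0.89 times for Lama5 and 0.72 times for Lama3. The groups were therefore compared within replicate numbers, with edgeR's quasi-likelihood test in a model that holds the replicate number, and p-values were adjusted over all 17025 genes. Fold changes are hairpin minus shControl on the log2 scale, and a gene was called where the adjusted p was under 0.05. How far the marker levels contribute to the results was not tested.

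**Figure D1:**
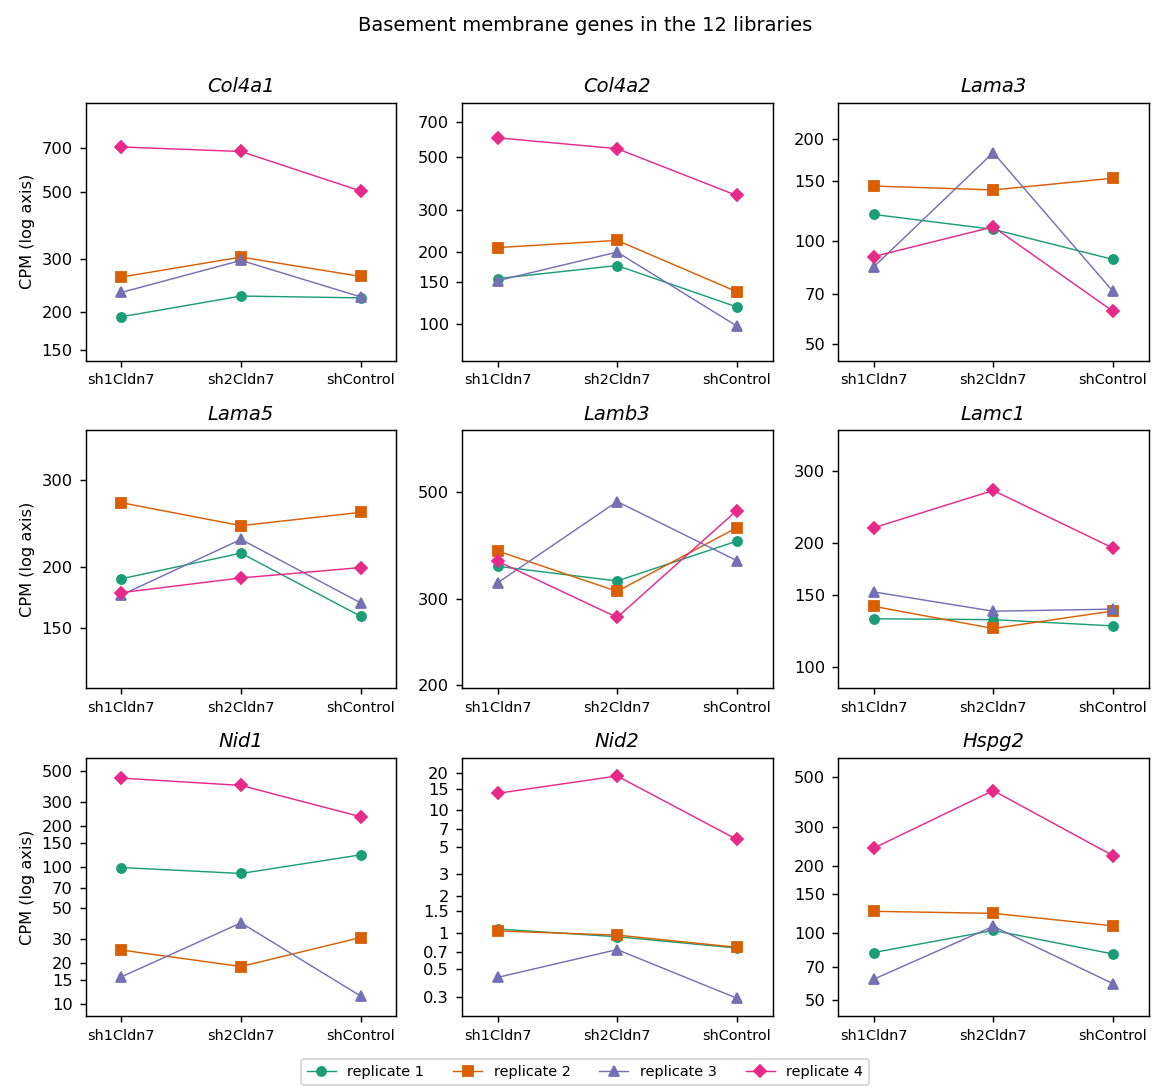
Level of each member (CPM, log axis) in the 12 libraries, by group and with libraries of the same replicate number joined by a line. Replicate 4 is the highest line in all 3 groups for Col4a1, Col4a2, Lamc1, Nid1, Nid2 and Hspg2, and in no group for Lama3 and Lama5.

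Per kilobase of annotated exon, Lamb3 was the most abundant member in the shControl group, with 61.8 ± 6.16 CPM per kb (SD, n = 4). Col4a1 followed with 40.7 ± 18.1, Col4a2 with 26.4 ± 17.4, Lamc1 with 18.0 ± 3.76, Lama5 with 17.2 ± 3.90 and Nid1 with 14.3 ± 14.6 CPM per kb (SD, n = 4). Lama3 had 8.73 ± 3.82, Hspg2 8.20 ± 5.09 and Nid2 0.37 ± 0.50 CPM per kb (SD, n = 4). Each neighbouring pair in this order overlapped between shControl libraries except the last, where the highest Nid2 library (1.11) was below the lowest of Hspg2 (4.13). The order of the first 3 was the same with each hairpin. Col4a2 came closer to Col4a1, with 42.2 ± 32.7 against 46.7 ± 32.2 CPM per kb in sh1Cldn7 libraries and 43.1 ± 26.0 against 50.6 ± 27.6 in sh2Cldn7 libraries (SD, n = 4).

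Col4a2, the alpha2 chain of collagen IV, was the member that rose with each hairpin, where 0.382% (sh1Cldn7) and 2.83% (sh2Cldn7) of all genes tested rose. In replicates 1 to 4 it stood at 155, 209, 152 and 602 CPM in sh1Cldn7 libraries and at 176, 224, 200 and 542 CPM in sh2Cldn7 libraries, against 118, 137, 98.3 and 345 CPM in shControl libraries. Every hairpin library exceeded the shControl library of its own number, 8 of 8 pairs, while the groups as wholes overlapped through replicate 4. The fold change over both hairpins was 0.68 (SE 0.08; edgeR adjusted p = 0.00528), that is 1.60-fold. It was 0.61 for sh1Cldn7 (SE 0.09; edgeR adjusted p = 0.0189) and 0.74 for sh2Cldn7 (SE 0.09; edgeR adjusted p = 0.00265). The call over both hairpins held without any 1 library and without any 1 replicate number. In replicates 1 and 2 alone the fold change was 0.57 (edgeR adjusted p = 0.0490) and in replicates 3 and 4 alone 0.80 (edgeR adjusted p = 0.0859). The sh1Cldn7 call was lost without shControl replicate 1 or 4 or any 1 of the 4 sh1Cldn7 libraries, with edgeR adjusted p up to 0.0845, and without replicate number 1, 2 or 4, with edgeR adjusted p up to 0.128. With no replicate number in the model the fold change was 0.69 (SE 0.51) and the gene was not called (edgeR adjusted p = 1).

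Col4a1, the alpha1 chain, did not pass with either hairpin. It stood at 193, 262, 233 and 706 CPM in sh1Cldn7 libraries and at 226, 305, 297 and 682 CPM in sh2Cldn7 libraries, against 223, 263, 225 and 505 CPM in shControl libraries. With sh1Cldn7 it was above its shControl partner in 2 of 4 pairs, chiefly in replicate 4, and with sh2Cldn7 in 4 of 4. The fold changes were 0.08 for sh1Cldn7 (SE 0.10; edgeR adjusted p = 0.795) and 0.26 for sh2Cldn7 (SE 0.10; edgeR adjusted p = 0.140).

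The ratio of the neighbours does not depend on library scaling. For each Col4a1 read, the sh1Cldn7 libraries held 0.80, 0.80, 0.65 and 0.85 Col4a2 reads and the sh2Cldn7 libraries 0.78, 0.74, 0.67 and 0.79, against 0.53, 0.52, 0.44 and 0.68 in the shControl libraries of replicates 1 to 4. Within each replicate number both hairpin libraries lay above the shControl library. The mean ratio was 0.78 ± 0.09 for sh1Cldn7, 0.75 ± 0.05 for sh2Cldn7 and 0.54 ± 0.10 for shControl (SD, n = 4 each). On the log2 scale the ratio was higher by 0.60, 0.62, 0.58 and 0.32 with sh1Cldn7 and by 0.55, 0.50, 0.62 and 0.22 with sh2Cldn7, so the difference was smallest in replicate 4 for both hairpins. The ratio was examined after the values of both genes were known and is given without a test.

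**Figure D2:**
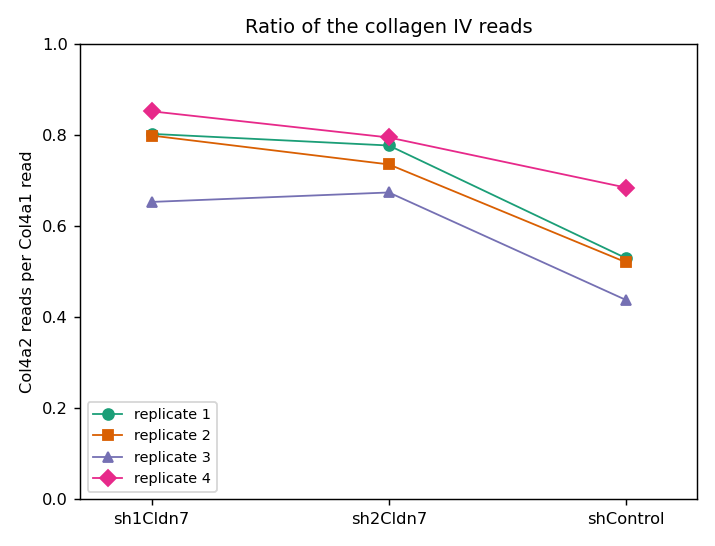
Col4a2 reads per Col4a1 read in each library (vertical axis, from 0), by group, with libraries of the same replicate number joined by a line. All 4 lines are lower at shControl than at either hairpin, with shControl ratios of 0.44 to 0.68.

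The other collagen IV chains that were well detected, Col4a5 and Col4a6, moved the other way where they passed. They encode the alpha5 and alpha6 chains, which assemble with each other or with other collagen IV chains. Col4a6 stood at 100, 124, 119 and 115 CPM in sh1Cldn7 libraries and at 115, 146, 140 and 112 CPM in sh2Cldn7 libraries, against 131, 174, 136 and 160 CPM in shControl libraries. Over both hairpins it fell by 0.31 on the log2 scale (SE 0.07; edgeR adjusted p = 0.0461), and it did not pass with sh1Cldn7 (edgeR adjusted p = 0.0541) or sh2Cldn7 (0.113) alone. Col4a5 fell by 0.31 with sh1Cldn7 (SE 0.05; edgeR adjusted p = 0.0287) and had a fold change of -0.06 (SE 0.05; edgeR adjusted p = 0.575) with sh2Cldn7. Its level was higher with sh2Cldn7 than with sh1Cldn7 by 0.25 (SE 0.05; edgeR adjusted p = 0.0289). The calls of Col4a6 and Col4a5 were lost without replicate 4 and with no replicate number in the model. The kidney-type chains Col4a3 and Col4a4 did not exceed 3.51 and 3.74 CPM in any library and were not called.

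Of the laminin chains, none of the 4 members was called in the edgeR fit over all 12 libraries. Lama3 (chromosome 18, 12333819 to 12583013) and Lamb3 (chromosome 1, 193207699 to 193343878) encode the alpha and beta chains of laminin-332, the anchor of hemidesmosomes. Lama3 stood at 120, 145, 84.0 and 90.1 CPM in sh1Cldn7 libraries and at 108, 142, 182 and 110 CPM in sh2Cldn7 libraries, against 88.4, 153, 71.3 and 62.3 CPM in shControl libraries. The sh2Cldn7 library of replicate 3 was the highest of all 12 and the groups overlapped. Its fold change was 0.28 with sh1Cldn7 (SE 0.21; edgeR adjusted p = 0.640) and 0.61 with sh2Cldn7 (SE 0.21; edgeR adjusted p = 0.118). DESeq2 called Lama3 with sh2Cldn7 (DESeq2 adjusted p = 0.0230), as did edgeR in replicates 3 and 4 alone, with a fold change of 1.13 (edgeR adjusted p = 0.0458). With 1 library left out the sh2Cldn7 fold change of Lama3 ran from 0.32, without sh2Cldn7 replicate 3, to 0.80, and it was not called (edgeR adjusted p of 0.0509 to 0.340).

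Lamb3 was the 1 member with a negative fold change for both hairpins. It stood at 351, 377, 324 and 360 CPM in sh1Cldn7 libraries and at 327, 312, 477 and 276 CPM in sh2Cldn7 libraries, against 395, 421, 361 and 457 CPM in shControl libraries. It lay below its shControl partner in 7 of 8 pairs, the exception being sh2Cldn7 replicate 3. The fold change was -0.23 over both hairpins (SE 0.13; edgeR adjusted p = 0.407), and without sh2Cldn7 replicate 3 it was -0.34 (edgeR adjusted p = 0.0188). For sh2Cldn7 alone the fold change of Lamb3 without that library was -0.47 (edgeR adjusted p = 0.0102).

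Lama5 (chromosome 2, 180176373 to 180225859) and Lamc1 (chromosome 1, 153218922 to 153332786) encode the alpha5 and gamma1 chains of laminin-511, the general laminin of epithelial basement membranes. Lama5 ranged from 175 to 269 CPM in sh1Cldn7 libraries and from 190 to 242 CPM in sh2Cldn7 libraries, against 159 to 258 CPM in shControl libraries. Lamc1 ranged from 131 to 218 CPM in sh1Cldn7 libraries and from 124 to 269 CPM in sh2Cldn7 libraries, against 126 to 195 CPM in shControl libraries. The ranges of Lama5 overlapped almost whole. Those of Lamc1 also overlapped, but replicate 4 reached 218 CPM with sh1Cldn7 and 269 CPM with sh2Cldn7, above every shControl library. Over both hairpins the fold change was 0.11 for Lama5 (SE 0.09; edgeR adjusted p = 0.560) and 0.10 for Lamc1 (SE 0.08; edgeR adjusted p = 0.571). Lamb1, the beta chain of laminin-511, named for its place in the trimer and not for its values, averaged 171 ± 67.5, 164 ± 95.1 and 119 ± 41.6 CPM (SD, n = 4 each) with sh1Cldn7, sh2Cldn7 and shControl. Its fold change over both hairpins was 0.45 (SE 0.13; edgeR adjusted p = 0.125).

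The nidogens varied most between replicate numbers. Nid1 (chromosome 13, 13437551 to 13512269) ranged 38.7-fold and Nid2 (chromosome 14, 19751265 to 19811787) 65.1-fold from the lowest to the highest library. Nid1 stood at 99.2, 24.8, 15.8 and 445 CPM in sh1Cldn7 libraries and at 89.8, 18.8, 39.2 and 393 CPM in sh2Cldn7 libraries, against 123, 30.6, 11.5 and 232 CPM in shControl libraries. Both hairpin libraries were below shControl in replicates 1 and 2 and above it in replicates 3 and 4. The fold change over both hairpins was 0.26 (SE 0.30; edgeR adjusted p = 0.722), and it was -0.44 within replicates 1 and 2 and 1.04 within replicates 3 and 4. The hairpin effect in replicates 3 and 4 minus that in replicates 1 and 2 was 1.45 (SE 0.40), which did not pass over all genes (edgeR adjusted p = 0.652). That test of the difference called 0 of 17025 genes (0%), of which 1017 had an unadjusted p under 0.05.

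Nid2 was detected at low levels outside replicate 4. It had 1.07, 1.03, 0.43 and 13.7 CPM in sh1Cldn7 libraries and 0.93, 0.95, 0.73 and 19.0 CPM in sh2Cldn7 libraries, against 0.75, 0.76, 0.29 and 5.77 CPM in shControl libraries. All 8 hairpin libraries were above their shControl partner, and the groups overlapped. The raw counts behind these values were 29 to 36 in sh1Cldn7, 34 to 57 in sh2Cldn7 and 19 to 27 in shControl libraries of replicates 1 to 3. With sh2Cldn7 it rose by 1.03 (SE 0.26; edgeR adjusted p = 0.0451), and the fold change with sh1Cldn7 was 0.75 (SE 0.26; edgeR adjusted p = 0.253). The sh2Cldn7 call of Nid2 was kept without shControl replicate 2 or sh2Cldn7 replicate 2 and lost without any 1 of the other 10 libraries, with edgeR adjusted p of 0.0506 to 0.177. Without replicate 4 the sh2Cldn7 fold change was 0.67 and not called (edgeR adjusted p = 0.346), and it was 0.31 within replicates 1 and 2 and 1.61 within replicates 3 and 4. Nid2 shares 437 exon bases with Rtraf on the opposite strand, and whether the counting used strand is not given in the sources used here. Rtraf averaged 36.0 ± 5.64, 36.7 ± 6.56 and 36.3 ± 5.59 CPM (SD, n = 4 each) in the sh1Cldn7, sh2Cldn7 and shControl groups, and its fold change with sh2Cldn7 was 0.01 (SE 0.05; edgeR adjusted p = 0.919).

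Hspg2 (chromosome 4, 137468769 to 137570630), the perlecan gene, was called with sh2Cldn7 and not with sh1Cldn7. It stood at 81.5, 125, 61.8 and 240 CPM in sh1Cldn7 libraries and at 103, 122, 107 and 437 CPM in sh2Cldn7 libraries, against 80.3, 107, 59.1 and 223 CPM in shControl libraries. The sh2Cldn7 libraries of replicates 3 and 4 stood clear of their shControl partners, and the sh1Cldn7 libraries lay close to theirs. With sh2Cldn7 the fold change was 0.61 (SE 0.13; edgeR adjusted p = 0.0288), with sh1Cldn7 0.11 (SE 0.13; edgeR adjusted p = 0.805). The level with sh2Cldn7 minus that with sh1Cldn7 was 0.50 (SE 0.13), which did not pass (edgeR adjusted p = 0.0711). The sh2Cldn7 call was kept without 7 of the 12 libraries taken 1 at a time. It was lost without shControl replicate 1, 3 or 4 or sh2Cldn7 replicate 3 or 4, with edgeR adjusted p up to 0.1000, and without replicate number 1, 3 or 4, with edgeR adjusted p up to 0.136. Within replicates 1 and 2 the fold change was 0.27, and within replicates 3 and 4 it was 0.93. The fibroblast marker sum in replicates 1 to 4 was 2304, 821, 609 and 9398 CPM with sh2Cldn7, against 1546, 1173, 269 and 4329 CPM in shControl. The sum was thus higher with sh2Cldn7 in replicates 1, 3 and 4 and lower in replicate 2. Its part in the Hspg2 and Nid2 results was not tested.

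Taking both hairpins, 1 of the 9 members was higher and 0 lower, against 0.84% of all genes tested that were higher. With sh1Cldn7 it was again 1 of 9, against 0.382% of all genes, and with sh2Cldn7 3 of 9, against 2.83%. Between the hairpins 0 of 9 passed in edgeR, against 3.44% of all genes in either direction. DESeq2 with the replicate number called 1 member there, and Hspg2 alone of the members had an unadjusted edgeR p under 0.05 (0.00354). Fold changes were positive for 8 of 9 members with each hairpin, in comparisons that share the shControl libraries. Of all genes tested 49.5% were positive with sh1Cldn7 and 50.8% with sh2Cldn7. With sh1Cldn7 the positive values of Col4a1, Lama5, Nid1 and Hspg2 were smaller than their SE. The median over the members was 0.11 with sh1Cldn7 and 0.36 with sh2Cldn7, beside medians of 0.00 over all genes tested.

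**Figure D3:**
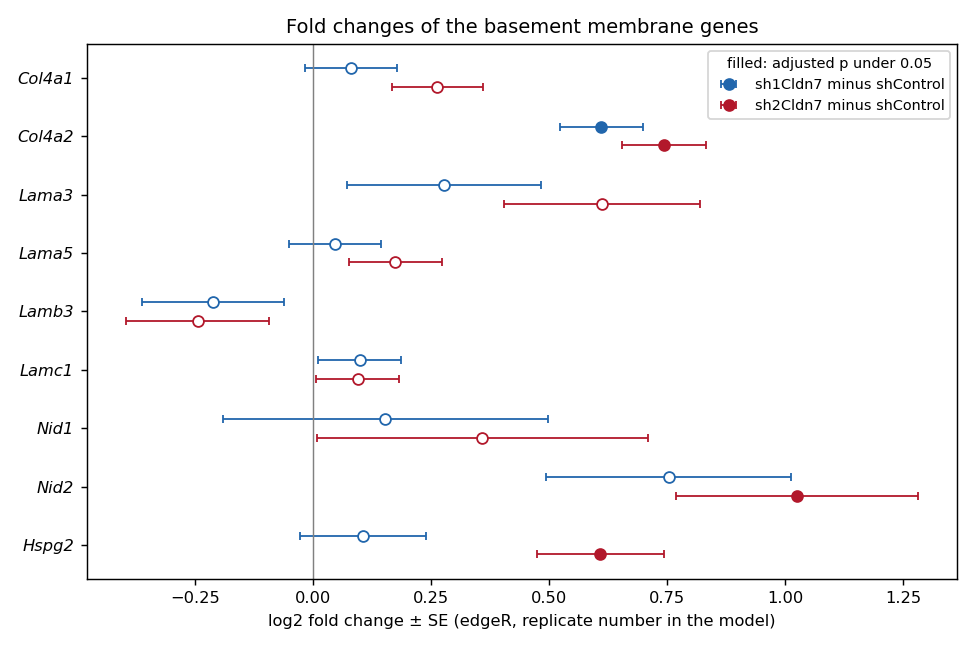
Log2 fold change (horizontal axis, bars ± SE) of each member in sh1Cldn7 and sh2Cldn7 against shControl, with filled points where the edgeR adjusted p was under 0.05. Col4a2 is filled for both hairpins at 0.61 and 0.74, Nid2 and Hspg2 for sh2Cldn7, and Lamb3 is left of 0 for both.

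The calls in the gene groups that follow depend on the model, in refits chosen after seeing the data. With no replicate number in the model none of their genes was called. Without replicate 4 none was called over both hairpins or with sh1Cldn7, while some were with sh2Cldn7, as given below. The groups were not refitted without replicate 1, 2 or 3. Of 33 other structural genes of the basement membrane, 6 rose and 2 fell with sh2Cldn7, and 0 rose and 1 fell with sh1Cldn7. Of all genes tested 2.83% rose and 2.93% fell with sh2Cldn7, and 0.382% and 0.347% with sh1Cldn7. Fbln5, an elastic fibre fibulin, stood at 45.7, 60.8, 90.9 and 115 CPM in sh2Cldn7 libraries, against 21.6, 29.4, 26.4 and 59.1 CPM in shControl libraries. It rose by 1.22 (SE 0.13; edgeR adjusted p = 0.00193), and exceeded its level with sh1Cldn7 by 1.16 (SE 0.13; edgeR adjusted p = 0.00151). Hmcn1, which encodes hemicentin 1, rose by 1.05 (SE 0.20), and Col17a1, the transmembrane collagen of hemidesmosomes, by 0.96 (SE 0.24). Col7a1, the anchoring fibril collagen, rose by 0.82 (SE 0.16), Sparc, a collagen-binding matrix protein, by 0.79 (SE 0.16) and the fibulin gene Fbln1 by 0.78 (SE 0.18). Npnt, which encodes the integrin alpha8 beta1 ligand nephronectin, stood at 103, 68.3, 207 and 88.8 CPM in sh2Cldn7 libraries, against 182, 103, 826 and 199 CPM in shControl libraries. It fell by 1.14 (SE 0.18; edgeR adjusted p = 0.00781), and the level with sh2Cldn7 minus that with sh1Cldn7 was -1.12 (SE 0.18; edgeR adjusted p = 0.00966). Papln, the papilin gene, fell by 0.59 (SE 0.15; edgeR adjusted p = 0.0457). Without replicate 4, Fbln5 was the 1 gene of the list still called with sh2Cldn7, where 185 genes of the whole table were called in either direction. The median fold change of the 33 was 0.19 with sh2Cldn7 and -0.02 with sh1Cldn7.

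Of 27 genes that fold, modify, export or crosslink collagen IV, 1 rose and 3 fell over both hairpins, where 0.84% of all genes rose and 0.946% fell, and their median fold change was -0.07, beside 0.00 for all genes. P3h2, a prolyl 3-hydroxylase that acts on collagen IV, stood at 48.6, 37.6, 69.0 and 51.4 CPM in sh1Cldn7 libraries and at 49.8, 37.0, 48.9 and 44.0 CPM in sh2Cldn7 libraries, against 70.3, 49.9, 72.7 and 72.6 CPM in shControl libraries. It was lower in all 8 pairs and fell by 0.47 (SE 0.07; edgeR adjusted p = 0.0177). Plod1, a lysyl hydroxylase, fell by 0.37 (SE 0.06; edgeR adjusted p = 0.0153) and Colgalt2, a collagen galactosyltransferase, by 0.87 (SE 0.18; edgeR adjusted p = 0.0449). P3h3, another member of the prolyl 3-hydroxylase family, rose by 0.47 (SE 0.09; edgeR adjusted p = 0.0327). Sec23a, a coat protein of the vesicles that leave the endoplasmic reticulum, fell by 0.35 with sh1Cldn7 (SE 0.07; edgeR adjusted p = 0.0490) and was the 1 gene of the list called there. With sh2Cldn7, P4ha3, a subunit of prolyl 4-hydroxylase, rose by 0.94 (SE 0.21; edgeR adjusted p = 0.0309) and P3h3 by 0.52 (SE 0.10), while P3h2 fell by 0.56 (SE 0.09) and Plod1 by 0.49 (SE 0.07). Of all genes tested 0.347% fell with sh1Cldn7, and 2.83% rose and 2.93% fell with sh2Cldn7. Without replicate 4, 3 genes of the list were lower with sh2Cldn7 and 0 were higher. They were Plod1 again and Crtap and Loxl3, of which Crtap and Loxl3 were seen only after the refit. That refit called 185 genes of the whole table in either direction.

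Receptors for these proteins come next. Of 19 receptor and hemidesmosome genes, 0 passed over both hairpins and 0 with sh1Cldn7, and with sh2Cldn7 Col17a1 rose and Lgals3, which encodes the lectin galectin-3, fell by 0.41 (SE 0.09; edgeR adjusted p = 0.0297), where 2.83% of all genes rose and 2.93% fell. The laminin-binding integrin chains, named here as a class, had fold changes over both hairpins of -0.10 for Itga6 (SE 0.06), 0.09 for Itgb4 (SE 0.07) and -0.01 for Itga3 (SE 0.09), none of them called. Of 20 tested genes of basement membrane turnover, 0 passed over both hairpins or with sh1Cldn7, and Timp2, an inhibitor of matrix metalloproteinases, rose by 0.68 with sh2Cldn7 (SE 0.17; edgeR adjusted p = 0.0488). Without replicate 4, 0 genes of either list were called with sh2Cldn7. Mmp7 and Mep1a of that list had too few reads to be tested.

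Some cell type markers were called with sh2Cldn7 and over both hairpins, and 0 markers of any list with sh1Cldn7. Of 13 basal or myoepithelial markers, cells that lay down much of the mammary basement membrane, 4 rose over both hairpins (Cnn1, Myh11, Tagln and Cdh3), against 0.84% of all genes tested, and 0 fell. With sh2Cldn7 6 of 13 rose, Acta2 and Trp63 in addition, against 2.83% of all genes. Without replicate 4, Cnn1, Myh11 and Cdh3 were still called with sh2Cldn7, and 0 genes of the fibroblast, pericyte and luminal lists were. That refit called 185 genes of the whole table in either direction. In replicates 1 to 4 the summed level of the 13 was 3112, 4459, 1992 and 2301 CPM with sh1Cldn7. With sh2Cldn7 it was 3390, 4480, 3581 and 2907 CPM, against 2563, 4641, 1613 and 1897 CPM in shControl. It was thus above shControl in replicates 1, 3 and 4 and below it in replicate 2 with each hairpin. Of 11 fibroblast markers, Col14a1 rose over both hairpins by 1.07 (SE 0.20), and Col14a1 and Dcn rose with sh2Cldn7. Dcn was also called higher with sh2Cldn7 than with sh1Cldn7, where 3.44% of all genes passed in either direction. The sum of the 11 fibroblast markers ranged from 319 to 5470 CPM in sh1Cldn7 libraries and from 609 to 9398 CPM in sh2Cldn7 libraries. In shControl libraries it ranged from 269 to 4329 CPM. Of 7 pericyte markers tested, Pdgfrb rose over both hairpins by 0.47 (SE 0.10), and Pdgfrb and Cspg4 rose with sh2Cldn7. Of 10 luminal markers Epcam fell over both hairpins by 0.25 (SE 0.05) and with sh2Cldn7 by 0.34 (SE 0.06). Of all genes tested 0.84% rose and 0.946% fell over both hairpins, and 2.83% rose and 2.93% fell with sh2Cldn7. No endothelial, macrophage or adipocyte marker was called in these comparisons. The part of these cell types in the rise of Col4a2, Nid2 and Hspg2 was not tested.

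**Figure D4:**
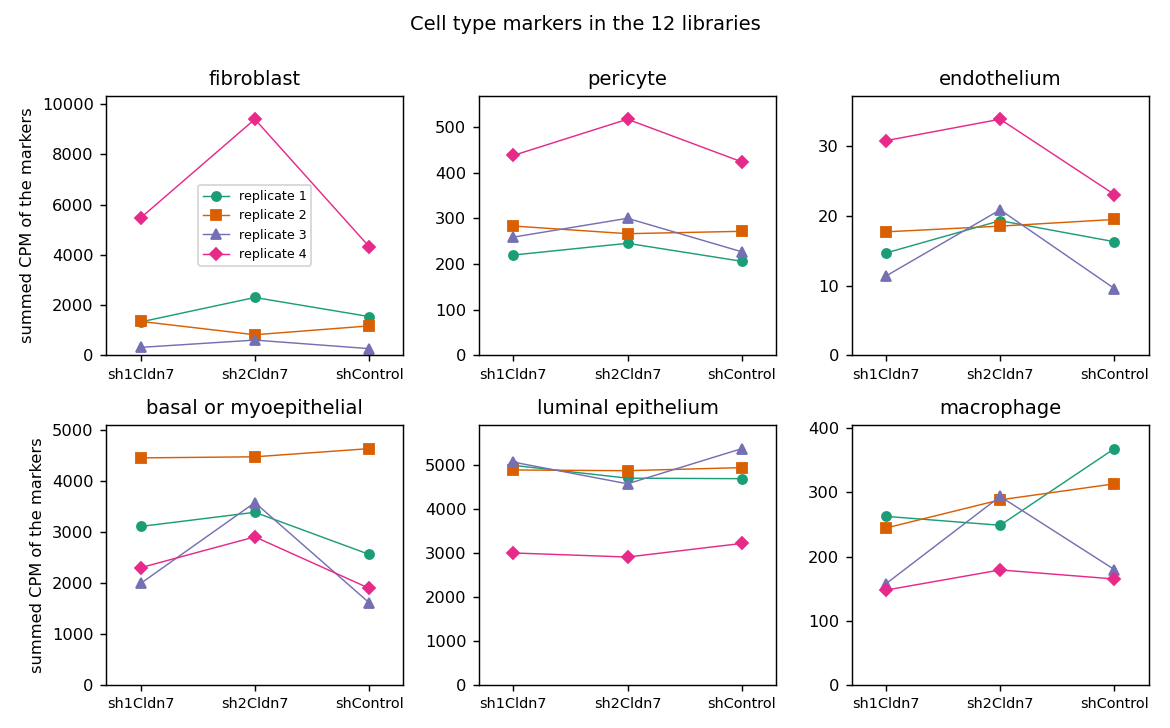
Summed CPM (vertical axes from 0) of the markers of 6 cell types in the 12 libraries, by group, with libraries of the same replicate number joined by a line. Replicate 4 is highest for fibroblast, pericyte and endothelial markers, the endothelial excess being that of Flt1, and lowest for luminal markers, and the fibroblast sum of sh2Cldn7 replicate 4 reaches 9398.

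The genes whose levels followed the collagen IV pair most closely were ranked by Pearson's r over the 12 libraries, after the mean of each replicate number was taken off. The ranking held 12426 genes with a mean of at least 2 CPM, with unnamed loci and the pair itself left out. The first were Vwa7 (r = 0.99), Speg (0.97), Dsc3 (0.96), C1qtnf6 (0.96) and Pcolce (0.96), with Spearman's rho of 0.90 to 0.99. Their mean levels were 2.15, 6.58, 33.6, 10.5 and 43.7 CPM in that order, so that Vwa7 lay just above the floor. Col4a1 and Col4a2 themselves had r = 0.73 with each other on this scale, so that the pair stands here for the mean of its log2 levels. The libraries share group and depth, and these values describe them only. Pcolce encodes an enhancer of procollagen C-proteinase, Dsc3 a desmosomal cadherin of basal epithelium, and Speg a striated muscle kinase.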

How the data were processed

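Total RNA was enriched for polyadenylated molecules and made into libraries with a NEBNext Ultra kit, per the labels' protocols. The authors deposited un-normalized counts of reads, with a gene in each row and a library in each column. FastQC 0.74, Trimmomatic 0.39, DESeq2 1.34.0 and mm10 are listed in the submitters' processing notes. The aligner, gene models and use of strand are not given in the sources used, so reads of overlapping genes are uncertain. Coordinates and exon lengths are from GENCODE M21 on GRCm38. Of 25861 gene numbers, 25233 matched the RefSeq table of GRCm38.p6, 23596 with the same symbol. RefSeq start windows were matched for 6 of the 9 members.

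Counts were filtered by edgeR 4.0.16 (filterByExpr by group, 17025 genes kept and 8836 left out), scaled by TMM and tested with glmQLFit and glmQLFTest in R 4.3.3 on the 12 libraries together, with Benjamini-Hochberg adjusted p under 0.05 as the threshold. The replicate number was a term of the model. The edgeR test returns no SE. The SE given is the absolute log2 fold change divided by the square root of the test's F statistic. Libraries with the same number deviated together from their group means (correlation 0.855 to 0.916, against -0.807 to 0.727 for other numbers). Replicates 1 and 2 also correlated with each other (0.696 to 0.727) and replicates 3 and 4 less (0.308 to 0.508), while correlations between these 2 sets were negative. Deviations from a group mean cancel within the group, so that some negative correlations between numbers arise by construction. The numbers stand in the sample titles, with no animal or day stated, so that p-values cover only the spread between these samples and this spread may be technical. No pair of libraries within a group was close enough to be a duplicate (chi-square per degree of freedom of 50.7 to 61.7 between replicates 1 and 2, and 351 to 570.0 between the others). The biological coefficient of variation was 0.141 with the number and 0.648 without it. The steps were tested on simulated data. The precision of a level follows from the counts, and counts of under 60 stand behind most Nid2 values.

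The members, the lists and the tests were chosen with earlier results of these data known. Named were all members, Cldn7, and of each of 11 lists at most 6 genes past the threshold of smallest p in each comparison, besides a laminin chain partner and integrins named by role; Papln, Col17a1 in the structural list, and Crtap and Loxl3 were added after their values were seen. Alternatives were a model with no replicate number, DESeq2 1.42.0, other scaling, no filter, only the groups compared, replicates 1 and 2 or 3 and 4 alone, and each library or replicate number left out. The refits of the gene lists without replicate 4 or without the replicate number were added after seeing the data.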

Additional observations from a re-analysis of the deposited data

Results flagged for a closer look

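In 11 of 27 groups of 4 libraries, 1 library of a member lay so far from the other libraries of its group that Dixon's test at 95% marks it. Chance marks about 1 in 20 groups, and the groups are not independent since most marks fall on the same replicate number. Replicate 4 was marked for Col4a1 at 706 CPM with sh1Cldn7 and 504.6 CPM in shControl, for Col4a2 at 602, 542 and 345 CPM with sh1Cldn7, sh2Cldn7 and shControl, and for Nid2 at 13.7, 19.0 and 5.77 CPM with sh1Cldn7, sh2Cldn7 and shControl. It was also marked for Lamc1 at 269.0 CPM and for Hspg2 at 437 CPM, both with sh2Cldn7. The remaining mark was Lama5 in sh1Cldn7 replicate 2 at 269.4 CPM. The summed fibroblast and pericyte markers were likewise highest in replicate 4 of each group, and their part in these marks was not tested.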

How the results depend on the processing

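The replicate number decided most calls. With no replicate block, 0 members were called in any comparison with shControl and 1 gene over the whole table, Cldn7, against 304, 124 and 981 genes over both hairpins, with sh1Cldn7 and with sh2Cldn7 when the block was in the model; between the hairpins it was 1 gene against 585. In the fit without the block, 406, 307 and 606 genes had an unadjusted p under 0.05 against shControl. DESeq2 with the block called 1161, 607 and 1860 genes against shControl and 1436 between the hairpins, with 3 members over both hairpins, 4 with sh2Cldn7 (Lama3 in addition to the 3 of edgeR) and 1 between the hairpins. Without a filter on low counts 1 member was called between the hairpins. With only the groups compared in the fit, sh1Cldn7 gave 390 genes and sh2Cldn7 97 genes and 1 member. In replicates 1 and 2 alone, 25, 9 and 82 genes were called against shControl and 84 between the hairpins, with 0 members for sh1Cldn7 and 1 for sh2Cldn7. In replicates 3 and 4 alone it was 5, 1 and 327 genes and 42 between the hairpins, with 0 members over both hairpins, 0 for sh1Cldn7, 3 for sh2Cldn7 (Lama3, Nid2 and Hspg2) and 1 between the hairpins. Some of these fits also hold fewer libraries, and the cause of the shifts was not tested.

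With 1 library or 1 replicate number left out, the counts of genes ran from 26 to 554 over both hairpins, from 1 to 344 with sh1Cldn7, from 185 to 1076 with sh2Cldn7 and from 66 to 672 between the hairpins. Members called ran from 1 to 2, from 0 to 1, from 1 to 3 and from 0 to 1 in the same order. Without replicate 4, the member called was Col4a2 over both hairpins and with sh2Cldn7, and none with sh1Cldn7.

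Fold changes that turned sign were small or belonged to Nid1, and none had been called. In replicates 1 and 2 alone Nid1 was -0.44 over both hairpins, -0.30 with sh1Cldn7 and -0.57 with sh2Cldn7, Col4a1 was -0.11 with sh1Cldn7 and Lamc1 -0.049 with sh2Cldn7. In replicates 3 and 4 alone Lama5 was -0.045 with sh1Cldn7. Between the hairpins, Lamc1 was 0.040 and Nid1 -0.11 with no replicate block, Lama3 -0.10, Nid1 -0.27 and Nid2 -0.17 in replicates 1 and 2 alone, and Lamb3 0.13 and Lamc1 0.081 in replicates 3 and 4 alone. With a library or a replicate number left out, Nid1 ran from -0.026 to 0.52 over both hairpins, from -0.12 to 0.42 with sh1Cldn7, from -0.14 to 0.70 with sh2Cldn7 and from -0.27 to 0.44 between the hairpins. With sh1Cldn7, Col4a1 ran from -0.044 to 0.18 and Lama5 from -0.021 to 0.14. Lamc1 ran from -0.031 to 0.17 with sh2Cldn7 and from -0.12 to 0.062 between the hairpins, and Lamb3 between the hairpins from -0.26 to 0.10. The depth of 34988358 to 76329473 counts leaves under 60 reads of Nid2 in libraries outside replicate 4, which limits its folds there.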
